A study of Homo sapiens with 12 samples.

Results

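The 10 genes described here set how readily the lipids of a cell membrane are oxidised, which is the event that drives the iron-dependent cell death called ferroptosis. They are *ACSL1*, *ACSL3*, *ACSL4*, *ACSL5* and *LPCAT3*, which place fatty acids in membrane lipids, *GPX4*, *AIFM2*, *DHODH* and *GCH1*, which remove or prevent lipid peroxides, and *SAT1*, which breaks down polyamines. They were chosen for these roles by a rule that uses no measured value, though with earlier results of these data known, from a table of 26258 genes listed by Entrez identifier. RNA was sequenced from HLE cells, an established human hepatocellular carcinoma line, transfected with a control siRNA (siCtrl), with siRNA against YAP and TAZ together (siY/T) or with siRNA against the transcription factor ATF4 (siATF4), and then given the vehicle DMSO or 5 µM of the kinase inhibitor Sorafenib (Srf). These 6 groups had 2 libraries each. All groups were transfected cultures of the same line, so the controls carried a transfection as well, and the labels give neither the siRNA dose nor the time of treatment. The Sorafenib dose is that of the labels, and the paper states another dose, together with a time of treatment, for these cells. In these bulk samples a loss of cells of a kind and a loss of RNA per cell cannot be told apart.

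Long-chain acyl-CoA synthetases (the ACSL family) couple a free fatty acid to coenzyme A. ACSL4 prefers arachidonic and other polyunsaturated acids, whose membrane lipids are the main substrate of peroxidation, whereas ACSL3 favours monounsaturated acids, whose lipids resist it. LPCAT3 then esterifies polyunsaturated acyl groups into phospholipids. GPX4 reduces lipid hydroperoxides with glutathione, FSP1 (the product of *AIFM2*) and DHODH regenerate reduced ubiquinone as a radical trap at the plasma membrane and in mitochondria, and GCH1 is the first enzyme of tetrahydrobiopterin synthesis, another trap. SAT1 acetylates spermidine and spermine and has been linked to lipid peroxidation through the lipoxygenase ALOX15. Sorafenib is used against liver cancer and is known to promote ferroptosis in some cells.

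Sequencing gave 41408348 to 53619732 reads on genes per library, and levels are given in CPM, counts scaled to 1000000 reads on genes. Changes are log2 fold changes of CPM + 0.5, estimated with limma over the 12 libraries together in the 13515 genes that reached 1 CPM in 2 or more of them. A call required an unadjusted P (two-sided) under 0.05 and a log2 fold change of 0.58 or more in either direction, and the verbs rose and fell are kept for such changes. A difference between the effects of an siRNA in Sorafenib and in DMSO was called at an adjusted p under 0.05. All adjusted p-values are from limma with Benjamini-Hochberg adjustment over all genes tested. Nothing in the labels says that the 2 libraries of a group came from separate cultures. The paper's methods state biological triplicates, but the labels hold 2 libraries per group. The p-values rest on the spread between libraries of a group, pooled for each gene over the 6 groups, which may be technical. The siRNA targets were lower in the groups labelled for them, with log2 fold changes of -2.41 and -2.47 for *YAP1*, -1.495 and -1.52 for *WWTR1* (TAZ) with siY/T, and -1.33 and -2.47 for *ATF4* with siATF4, in DMSO and Sorafenib. *WWTR1* also fell with siATF4 in DMSO (-0.70), and *ATF4* also fell with siY/T in Sorafenib (-0.63). The siY/T DMSO libraries stood apart, with a chi-square between them of 20.7 per gene against 2.98 to 8.30 in the other groups. The pooled spread can thus be too small for comparisons with siY/T DMSO cells and too large for the others. The hepatocyte markers *ALB*, *AFP*, *APOA1*, *TTR* and *HNF4A* were at or near 0 (at most 0.117 CPM), whereas the keratins *KRT8* and *KRT18* and the mesenchymal filament *VIM* were abundant. Keratins of this kind mark simple epithelia in general, so no marker specific to the liver was seen. The epithelial marker *EPCAM* was low, at 0.15 to 0.701 CPM, and did not pass the filter. Both keratins fell with siY/T (list medians of -1.70 in DMSO and -1.25 in Sorafenib), and *KRT8* fell with siATF4 under both treatments, and their part in the results was not tested. Of 8 markers of other cell types 4 passed the filter. Of those listed for leukocytes, *CD68* had 19.8 to 75.0 CPM, whereas *PTPRC* was at or near 0, as was the endothelial marker *PECAM1*. Without *VIM*, these markers summed to 48.3 to 51.7 CPM in siCtrl DMSO, 79.0 to 85.4 in siY/T DMSO, 78.4 to 83.1 in siATF4 DMSO, 65.0 to 67.6 in siCtrl Srf, 81.4 to 86.1 in siY/T Srf and 69.7 CPM in both siATF4 Srf libraries, mainly from the lysosomal protein *CD68* and the collagen *COL1A1*, and their part in the results was not tested.

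All 10 genes passed the filter on low values, and each was above 1 CPM in every library. Per kilobase of the canonical GENCODE transcript, *GPX4* was the most abundant in siCtrl DMSO cells with 264 ± 5.30 CPM per kb (SD, n = 2 libraries). *LPCAT3* followed with 54.3 CPM per kb, and then *ACSL4* with 34.4, *ACSL3* with 22.2 and *ACSL1* with 11.2 CPM per kb. *AIFM2* had 9.38, *SAT1* 7.01, *DHODH* 2.56, *ACSL5* 2.02 and *GCH1* 0.702 CPM per kb. None of these neighbours in the order overlapped between their 2 libraries. Reads were counted over RefSeq exons, so the order also depends on the transcript chosen for the length, and other lengths were not tried. Across groups, *GPX4* was the steadiest, with a ratio of 1.27 between its highest and lowest group mean in CPM, and *SAT1* the most variable with a ratio of 5.36.

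**Figure D1:**
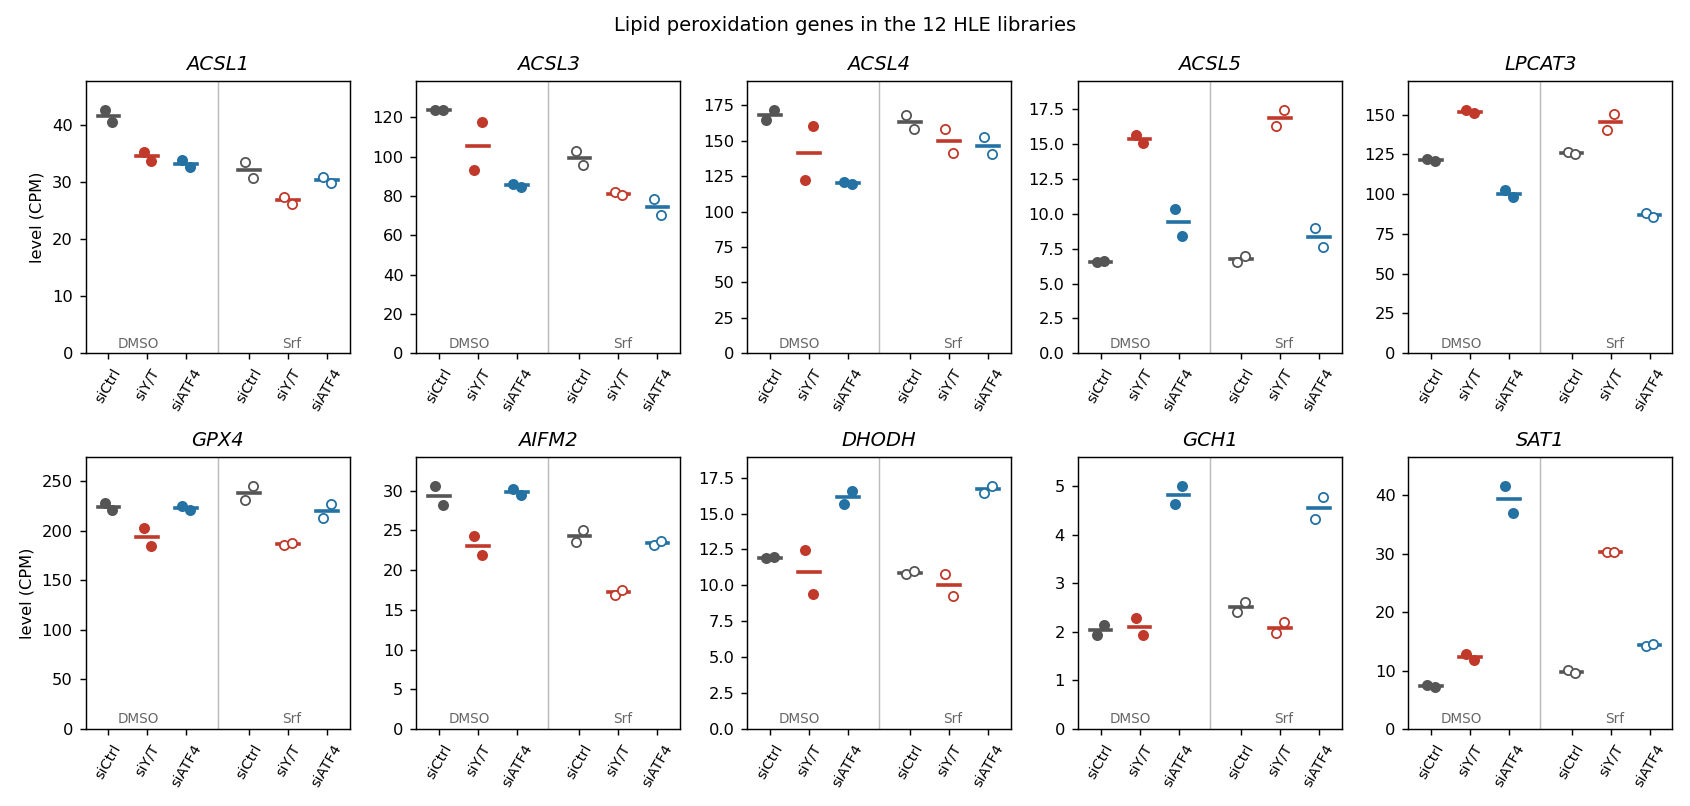
Level of each of the 10 genes in CPM (y axes, from 0) in the 12 libraries by siRNA and treatment; points are libraries, filled for DMSO and open for Sorafenib (Srf), and bars are group means. *SAT1* spans 7.26 to 41.6 CPM with its highest level in siATF4 DMSO cells, *ACSL5* is highest in both siY/T groups, *DHODH* and *GCH1* are highest in both siATF4 groups, and *GPX4* stays between 185 and 245 CPM.

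Over the 9 comparisons between groups, 5 of the 10 genes were called at least once, namely *ACSL5*, *LPCAT3*, *DHODH*, *GCH1* and *SAT1*, and the other 5 never were. With siY/T, 2 of the 10 genes were called in DMSO and 2 in Sorafenib, beside 14.6% and 9.95% of all genes tested. With siATF4, 2 were called in DMSO and 2 in Sorafenib, beside 22.7% and 28.9% of all genes. Sorafenib called none of the 10 in siCtrl cells beside 17.5% of all genes, 1 in siY/T cells beside 9.97%, and 1 in siATF4 cells beside 8.63%. Against each other, siY/T and siATF4 cells differed in 4 of the 10 genes in DMSO beside 35.7% of all genes, and in 5 in Sorafenib beside 38.5%. At an adjusted p under 0.05 by limma and any fold, 8 and 7 of the 10 genes passed with siY/T in DMSO and Sorafenib beside 60.1% and 48.9% of all genes, and 8 and 6 with siATF4 beside 67.9% and 73.2%. With Sorafenib 4 passed in siY/T cells beside 52.9% and 4 in siATF4 cells beside 50.4%, and between siY/T and siATF4 cells 8 passed under each treatment beside 77.3% and 78.8%. Of these 90 values, 57 passed, and 9 of the 57 lost that side in at least 1 alternative or without 1 library, while 14 of the other 33 gained it. With 10 genes, nothing is read from how these counts compare with the shares of all genes. Their median log2 fold change was -0.17 and -0.18 with siY/T in DMSO and Sorafenib, against 0.069 and 0.053 over all genes, and 0.0064 and -0.063 with siATF4, against -0.0013 and -0.0082 over all genes. The comparisons of siY/T and of siATF4 with siCtrl share their siCtrl libraries.

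Sorafenib in siCtrl cells gave no call among the 10 genes by limma, edgeR or DESeq2, although 5 of them passed an unadjusted P under 0.05 in limma and 4 in each of the other tools. At least the 63.2% of all genes that passed an adjusted p in limma passed that P too, so nothing is read from these counts. At an adjusted p under 0.05 and any fold, *SAT1* was higher by 0.39 on the log2 scale, and *ACSL1*, *ACSL3* and *AIFM2* were lower, 4 of 10 genes beside 63.2% of all genes. The *SAT1* value was 0.18 after quantile normalization, with an adjusted p of 0.0531 by limma, at the top of its range of 6.03e-05 to 0.0531 over all alternatives. The log2 fold changes were -0.37 for *ACSL1*, -0.31 for *ACSL3* and -0.27 for *AIFM2*. Without the second siCtrl Srf library, *ACSL3* had an adjusted p of 0.0566 by limma, at the top of its range of 1.67e-05 to 0.0566 over the fits that each left out a library.

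**Figure D2:**
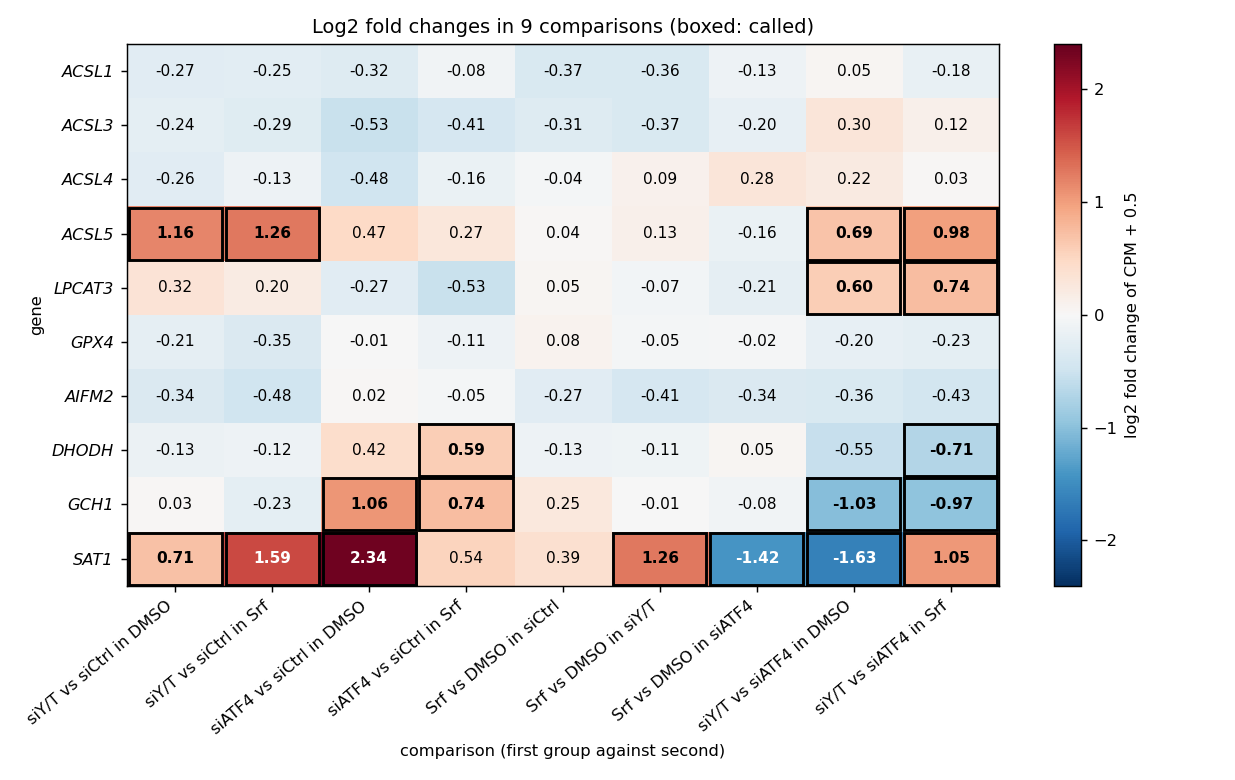
Log2 fold change of CPM + 0.5 (colour and printed value) for the 10 genes (rows) in 9 comparisons (columns, first group against second); boxes mark called values, an unadjusted P under 0.05 with at least 0.58. The column of Sorafenib in siCtrl cells holds no box, the rows of *ACSL1*, *ACSL3*, *ACSL4*, *GPX4* and *AIFM2* hold none, and *SAT1* changes sign between comparisons, from 2.34 to -1.63.

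Among the 4 ACSL genes, *ACSL5* was the gene that rose with siY/T. *ACSL5* (Entrez 51703, chromosome 10 of GRCh37, 114133874 to 114188137, plus strand) encodes a synthetase of mitochondria and endoplasmic reticulum. Its level was 6.53 and 6.64 CPM in the siCtrl DMSO libraries, while the siY/T DMSO libraries had 15.7 and 15.1 CPM, and 6.53 and 7.00 CPM against 16.3 and 17.4 CPM with Sorafenib. The siY/T libraries lay far above the siCtrl libraries under both treatments, by 1.16 on the log2 scale in DMSO (adjusted p = 5.42e-07 by limma, standard error 0.099) and 1.26 in Sorafenib (adjusted p = 4.41e-07 by limma). In siATF4 cells it was 10.3 and 8.44 CPM in DMSO and 8.97 and 7.64 CPM in Sorafenib, above siCtrl in all 4 libraries but by less than the threshold (0.47 and 0.27). The latter was 0.52 after quantile normalization and 0.16 without the first siATF4 Srf library. Without the second siATF4 DMSO library the DMSO value was 0.61 and was called. Directly against siATF4, siY/T cells had more *ACSL5* by 0.69 in DMSO and 0.98 in Sorafenib. The former was 0.55 without the second siATF4 DMSO library and 0.49 after quantile normalization, which moved the median of all genes in this comparison by -0.125. The effect of siY/T on *ACSL5* differed between treatments by 0.094 (adjusted p = 0.658 by limma), and Sorafenib itself moved it by 0.037, 0.13 and -0.16 in siCtrl, siY/T and siATF4 cells. Of its canonical transcript, 11.3% lies under exons on the opposite strand, including those of *ZDHHC6*, whose log2 fold changes with siY/T were -0.11 and -0.039.

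Promoter windows of *ACSL5*, called with siY/T, and of *ACSL3*, not called, are shown because YAP and TAZ act on genes through TEAD factors, whose core motif is GGAATG, and both windows hold it. RefSeq windows of GRCh38.p14 from 250 bases before a start site to 50 after it were found for 9 of the 10 genes, 16 windows in all, and were searched on both strands for GGAATG, for the ATF4 motif TGATGNAA and for the NRF2 motif TGACNNNGC. GGAATG was in 3 of the 16 windows, 1 each of *ACSL1*, *ACSL3* and *ACSL5*, and in 14.0% of all 35116 promoter windows. The NRF2 letters were in windows of *ACSL1*, *ACSL5* and *AIFM2* (13.3% of all windows), and the ATF4 letters in none of the 16 (3.62% of all windows). The search used letters only, so a match is a description and not a bound site. The windows printed run to 20 bases after the start, 5′ to 3′ on the strand of the gene, with GGAATG in capitals. In the *ACSL5* window (chr10:112375018-112375287, plus strand) it begins 7 bases after the start base, and in the *ACSL3* window (chr2:222860786-222861055, plus strand) 176 bases before the start.
ACSL5: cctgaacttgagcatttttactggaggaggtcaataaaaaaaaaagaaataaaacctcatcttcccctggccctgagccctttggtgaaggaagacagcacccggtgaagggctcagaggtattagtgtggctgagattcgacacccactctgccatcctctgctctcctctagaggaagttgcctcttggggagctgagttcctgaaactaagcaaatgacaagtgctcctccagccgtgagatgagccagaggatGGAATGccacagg
ACSL3: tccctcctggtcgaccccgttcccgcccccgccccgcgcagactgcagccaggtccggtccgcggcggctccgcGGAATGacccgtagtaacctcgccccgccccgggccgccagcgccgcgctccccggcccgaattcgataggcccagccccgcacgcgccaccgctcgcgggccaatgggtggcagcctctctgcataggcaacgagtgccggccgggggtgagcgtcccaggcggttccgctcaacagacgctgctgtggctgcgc

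*ACSL4* (Entrez 2182, chromosome X, 108867473 to 108976632, minus strand), the synthetase for polyunsaturated acids, was not called in any comparison. It was 165 and 172 CPM in siCtrl DMSO cells, 122 and 161 CPM after siY/T in DMSO and 121 and 119.7 CPM in siATF4 DMSO cells. With Sorafenib it was 168 and 159 CPM in siCtrl, 158 and 142 CPM in siY/T and 153 and 141 CPM in siATF4 cells. The siATF4 DMSO libraries were the lowest of the 12, and the siY/T DMSO libraries lay far from each other. The log2 fold change with siATF4 was -0.48 in DMSO (adjusted p = 0.000596 by limma) and -0.16 in Sorafenib (adjusted p = 0.158 by limma). The difference between these effects was 0.33 with an adjusted p of 0.0718 by limma, and it passed without either siY/T DMSO library, in a fit of only the groups compared, with a replicate block within treatment and in DESeq2. With siY/T in DMSO the value was -0.26, and it ran from -0.46 to -0.066 as each library was left out, the latter without the first siY/T DMSO library.

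*ACSL3* (Entrez 2181, chromosome 2, 223725660 to 223809357, plus strand), the synthetase linked to monounsaturated lipids, was lower than in siCtrl with both siRNAs but never by 0.58. It ranged from 70.5 CPM in siATF4 Srf cells to 124 CPM in siCtrl DMSO cells. With siATF4 the log2 fold changes were -0.53 in DMSO and -0.41 in Sorafenib (adjusted p = 9.89e-05 and 0.000656 by limma), and the libraries did not overlap. With siY/T they were -0.24 and -0.29 (adjusted p = 0.0288 and 0.0131 by limma). As each library was left out, the former ran from -0.40 to -0.069, with -0.069 reached without the first siY/T DMSO library. The latter ran from -0.34 to -0.23. With all libraries kept, the adjusted p of the DMSO value reached 0.102 among the alternatives, so its being lower is not firm. That of the Sorafenib value stayed under 0.05 there, but not without the first siCtrl Srf or the second siY/T Srf library. The Sorafenib value is therefore not firm either. *ACSL1* (Entrez 2180, chromosome 4, 185676749 to 185747972, minus strand), a synthetase of broad substrate range, was highest in siCtrl DMSO cells with 42.6 and 40.5 CPM. The siY/T and siATF4 DMSO libraries lay between 32.6 and 35.3 CPM, and the Sorafenib libraries between 26.2 and 33.5 CPM. Its log2 fold change with siATF4 was -0.32 in DMSO and -0.077 in Sorafenib. The difference between these effects was called (0.24, standard error 0.084, adjusted p = 0.0347 by limma), and it lost the call when any of 5 libraries was left out, with adjusted p-values between 0.0175 and 0.151 by limma over all such fits. Those libraries were the first siCtrl DMSO, both siATF4 DMSO, the first siATF4 Srf and the second siCtrl Srf library, and the value without each lay between 0.18 and 0.27.

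*LPCAT3* (Entrez 10162, chromosome 12, 7085347 to 7125781, minus strand), the acyltransferase that follows ACSL4, moved in opposite directions with the siRNAs. It was 122 and 121 CPM in siCtrl, 153 and 151 CPM in siY/T and 102 and 98.2 CPM in siATF4 cells in DMSO. Under Sorafenib it was 127 and 125 CPM, 140.2 and 150.2 CPM, and 87.9 and 85.6 CPM in the same order. All 4 siY/T libraries lay above and all 4 siATF4 libraries below all 4 siCtrl libraries. Against siCtrl the log2 fold changes stayed under 0.58, at 0.32 and 0.20 with siY/T and -0.27 and -0.53 with siATF4 in DMSO and Sorafenib, each with an adjusted p under 0.05. Directly, siY/T cells exceeded siATF4 cells by 0.60 in DMSO and 0.74 in Sorafenib (standard error 0.044, adjusted p = 3.43e-08 and 3.61e-09 by limma). The DMSO value lay near the threshold and was below it with TMM scaling (0.53), quantile normalization (0.57), edgeR (0.53), DESeq2 (0.52) and without the second siATF4 DMSO library (0.57). The effect of siATF4 was more negative in Sorafenib than in DMSO by 0.26 on the log2 scale (-0.26, standard error 0.062, adjusted p = 0.00494 by limma). For siY/T the corresponding difference was -0.12 (adjusted p = 0.187 by limma). The exons of *EMG1* on the opposite strand cover 67.4% of the canonical *LPCAT3* transcript. The paper names a stranded library kit, but the strand setting of the counting is not given in the sources used here. *EMG1* had 95.7 and 98.9 CPM in siCtrl DMSO cells, and its log2 fold changes ran against those of *LPCAT3* in 3 of the 4 comparisons with siCtrl, at -0.28 and 0.097 with siY/T and 0.25 and 0.41 with siATF4. Whether reads of one were counted for the other was not tested.

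*GPX4* (Entrez 2879, chromosome 19, 1103981 to 1106790, plus strand), the central peroxidase of ferroptosis defence, was not called in any comparison. It was 228 and 221 CPM in siCtrl, 203 and 185 CPM in siY/T and 225 and 221 CPM in siATF4 cells in DMSO. With Sorafenib it was 231 and 245 CPM in siCtrl, 186 and 188 CPM in siY/T and 213 and 227 CPM in siATF4 cells. The siY/T libraries were the lowest under each treatment and did not overlap with siCtrl. In DMSO siY/T changed it by -0.21 on the log2 scale (adjusted p = 0.00280 by limma, standard error 0.051) and in Sorafenib by -0.35 (adjusted p = 0.0001 by limma), and with siATF4 it was -0.010 and -0.11 (adjusted p = 0.865 and 0.0590 by limma). The latter adjusted p ran from 0.00893 to 0.348 over all alternatives and was lowest after quantile normalization, where the value was -0.18. It passed 0.05 without the first or the second siY/T DMSO library (-0.11), the first siCtrl Srf (-0.16) or the second siATF4 Srf library (-0.16), in a fit of only these groups and with a replicate block within treatment. Sorafenib moved *GPX4* by 0.085, -0.050 and -0.019 in siCtrl, siY/T and siATF4 cells.

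*AIFM2* (Entrez 84883, chromosome 10, 71857979 to 71892690, minus strand), which encodes FSP1, was lower with Sorafenib and lower again with siY/T. In DMSO it was 30.6 and 28.2 CPM in siCtrl, 24.3 and 21.9 CPM in siY/T and 30.2 and 29.4 CPM in siATF4 cells. Under Sorafenib it was 23.5 and 25.03 CPM, 16.9 and 17.5 CPM, and 23.2 and 23.7 CPM in the same order. The siY/T Srf libraries were the lowest, and siATF4 libraries overlapped with siCtrl libraries under each treatment. The log2 fold changes with siY/T were -0.34 in DMSO and -0.48 in Sorafenib (standard error 0.066, adjusted p = 0.000632 and 5.7e-05 by limma). With Sorafenib they were -0.27, -0.41 and -0.34 in siCtrl, siY/T and siATF4 cells, each with an adjusted p under 0.05 and none past 0.58. From siCtrl DMSO to siY/T Srf cells the mean went from 29.4 ± 1.73 to 17.2 ± 0.416 CPM (SD, n = 2). The siY/T effect in Sorafenib differed from that in DMSO by -0.14 (adjusted p = 0.293 by limma). The *AIFM2* window (chr10:70132806-70133075, minus strand) is printed because it holds the letters of the NRF2 motif on the opposite strand, which are in capitals and begin 22 bases before the start.
AIFM2: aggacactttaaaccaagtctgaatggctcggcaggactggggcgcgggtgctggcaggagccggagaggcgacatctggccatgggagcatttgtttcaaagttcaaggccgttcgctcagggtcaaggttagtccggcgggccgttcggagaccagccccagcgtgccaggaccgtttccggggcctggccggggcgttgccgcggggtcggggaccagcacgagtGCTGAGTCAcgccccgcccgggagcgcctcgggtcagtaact

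*DHODH* (Entrez 1723, chromosome 16, 72042487 to 72061563, plus strand), an inner mitochondrial membrane enzyme of pyrimidine synthesis that reduces ubiquinone, was higher with siATF4. It was 11.9 and 11.96 CPM in siCtrl, 12.5 and 9.39 CPM in siY/T and 15.7 and 16.6 CPM in siATF4 cells in DMSO. With Sorafenib it was 10.8 and 10.97 CPM, 10.8 and 9.26 CPM, and 16.5 and 16.9 CPM in the same order. All 4 siATF4 libraries lay above the other 8. The log2 fold change with siATF4 was 0.42 in DMSO and 0.59 in Sorafenib (standard error 0.108, adjusted p = 0.00379 and 0.000235 by limma), so that *DHODH* rose past the threshold in Sorafenib, though only just. That call was lost at 0.57 with a pseudocount of 1 and at 0.57 without the second siATF4 Srf library. The difference between these effects was 0.18 (adjusted p = 0.379 by limma). Against siATF4, siY/T cells had less *DHODH* by -0.55 in DMSO and -0.71 in Sorafenib. The DMSO value was called with TMM scaling (-0.62), quantile normalization (-0.71), edgeR (-0.62) and DESeq2 (-0.63), without the first siY/T DMSO library (-0.75) and without the first siATF4 DMSO library (-0.59).

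*GCH1* (Entrez 2643, chromosome 14, 55308726 to 55369544, minus strand), the entry enzyme of tetrahydrobiopterin synthesis, rose with siATF4 under both treatments. It was 1.94 and 2.15 CPM in siCtrl, 2.28 and 1.93 CPM in siY/T and 4.63 and 5.01 CPM in siATF4 cells in DMSO. Under Sorafenib it was 2.42 and 2.63 CPM, 1.97 and 2.20 CPM, and 4.32 and 4.77 CPM in the same order. The 4 siATF4 libraries lay above the other 8, whose values stayed between 1.93 and 2.63 CPM. The log2 fold change with siATF4 was 1.06 in DMSO and 0.74 in Sorafenib (standard error 0.108, adjusted p = 1.48e-06 and 3.44e-05 by limma), on a scale that understates the change of so low a gene. Between 80 and 253 reads stood behind each value. The difference between the effects was -0.32 (adjusted p = 0.107 by limma). With siY/T the values were 0.032 and -0.23 (adjusted p = 0.813 and 0.0974 by limma), and siY/T cells had less *GCH1* than siATF4 cells by -1.03 and -0.97.

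*SAT1* (Entrez 6303, chromosome X, 23801290 to 23804327, plus strand), the rate-limiting enzyme of polyamine breakdown, showed the largest changes of the 10 genes. It was 7.44 and 7.26 CPM in siCtrl, 12.9 and 11.9 CPM in siY/T and 41.6 and 37.1 CPM in siATF4 cells in DMSO. With Sorafenib it was 10.0 and 9.504 CPM in siCtrl, 30.3 and 30.4 CPM in siY/T and 14.2 and 14.6 CPM in siATF4 cells. From the lowest to the highest the groups ran siCtrl DMSO, siCtrl Srf, siY/T DMSO, siATF4 Srf, siY/T Srf and siATF4 DMSO, and no neighbours in this order overlapped. With siY/T, *SAT1* rose by 0.71 in DMSO and 1.59 in Sorafenib (standard error 0.071, adjusted p = 2.42e-06 and 4.76e-09 by limma). With siATF4 it rose by 2.34 in DMSO (adjusted p = 2.94e-11 by limma) and was higher by 0.54 in Sorafenib, short of the threshold. The siY/T value in DMSO was 0.56 and not called, and the siATF4 value in Sorafenib 0.70 and called, after quantile normalization.

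Sorafenib moved *SAT1* in opposite directions by siRNA. It rose by 1.26 in siY/T cells and fell by 1.42 on the log2 scale in siATF4 cells (adjusted p = 3.15e-08 and 1.42e-08 by limma), and it was higher by 0.39 in siCtrl cells. The siY/T effect was larger in Sorafenib than in DMSO by 0.87 (standard error 0.101, adjusted p = 0.000188 by limma), and the siATF4 effect smaller by 1.80 on the same scale (-1.80, adjusted p = 2.90e-07 by limma). *SAT1* was thus 1 of 10 genes with a called difference for siY/T, beside 22.0% of all genes, and with *LPCAT3* and *ACSL1* 1 of 3 for siATF4, beside 41.1%. Compared directly, siY/T cells had less *SAT1* than siATF4 cells in DMSO (-1.63) and more in Sorafenib (1.05). The direction and call of both differences between treatments held in every alternative tried and without each library. An unnamed GENCODE gene on the same strand shares 8.58% of the canonical transcript. The *SAT1* window (chrX:23782923-23783192, plus strand) is printed because *SAT1* moved most, and it holds none of the 3 motifs, so no base is in capitals.
SAT1: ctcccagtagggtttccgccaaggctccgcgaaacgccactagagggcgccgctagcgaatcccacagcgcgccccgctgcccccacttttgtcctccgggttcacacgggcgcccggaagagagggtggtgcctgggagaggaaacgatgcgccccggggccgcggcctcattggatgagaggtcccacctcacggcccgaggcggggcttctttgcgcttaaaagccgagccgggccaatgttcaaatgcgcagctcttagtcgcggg

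**Figure D3:**
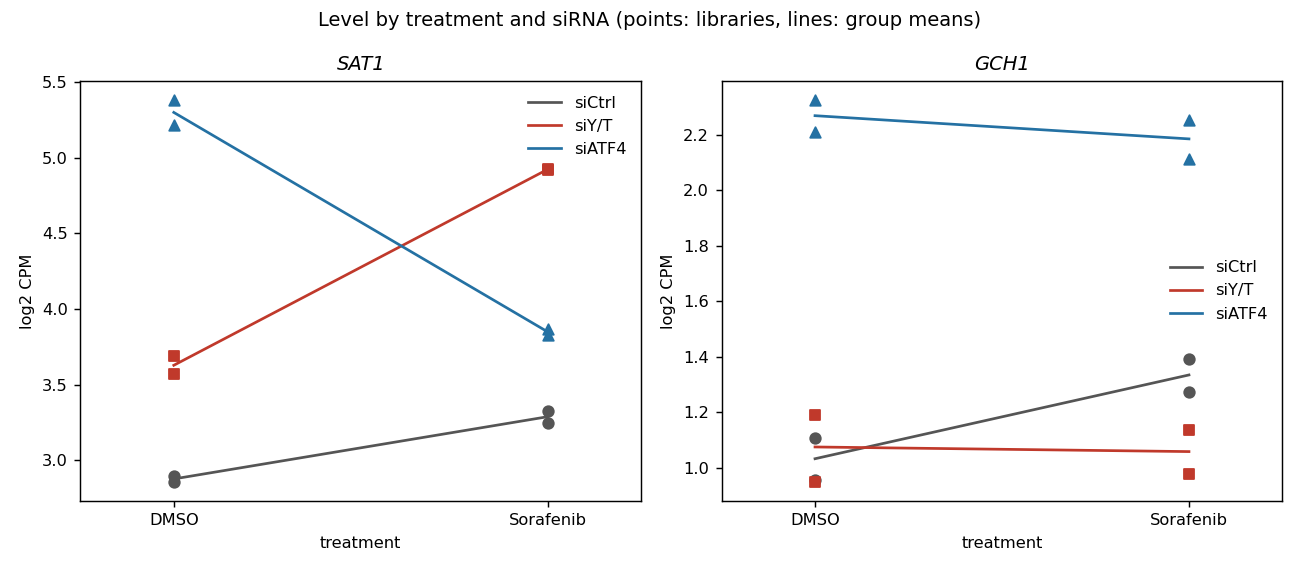
Level in log2 CPM (y axis) of *SAT1* (left) and *GCH1* (right) in DMSO and Sorafenib (x axis) by siRNA; points are libraries and lines join group means. The *SAT1* lines of siY/T and siATF4 cells cross, with 12.4 to 30.3 CPM and 39.4 to 14.4 CPM as group means, whereas for *GCH1* the siATF4 line stays above the others under both treatments.

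The other genes of these pathways were counted from lists written for the purpose, beside the same shares of all genes given above. Where a list gave no call, its count at an unadjusted P under 0.05 and any fold is also given. At least the 48.9% to 73.2% of all genes that passed an adjusted p in these comparisons passed that P too. Nothing is therefore read from such counts. Of 20 tested genes that activate, desaturate or remodel fatty acids, 8 fell with siATF4 in DMSO and 5 in Sorafenib, with list medians of -0.35 and -0.31. None rose past the threshold by limma, edgeR or DESeq2, and in limma 2 and 3 of them were higher at an unadjusted P under 0.05. They included *SCD*, the desaturase that makes monounsaturated acids, from 1074 to 414 CPM in DMSO (-1.38), and the acyl-CoA synthetases *ACSM3* (-1.33) and *ACSF2* (-1.27). *PLA2G6*, a phospholipase that removes oxidised acyl chains, fell by 0.63 on the log2 scale in DMSO and 1.399 in Sorafenib. With siY/T in DMSO 2 rose, *ACSM3* (1.00) and *ACSF2* (0.95), while in Sorafenib *ACSM3* rose (0.98) and *SCD* fell (-0.60). Directly, 9 of the 20 genes in DMSO and 8 in Sorafenib were called higher in siY/T than in siATF4 cells, and none lower. These counts stand beside 35.7% and 38.5% of all genes called in either direction. At an adjusted p under 0.05 by limma and any fold, 17 and 14 of the 20 were higher, and 0 and 4 lower.

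Of the 12 lipid-peroxidising enzymes written, 5 passed the filter, and *ALOX5*, *ALOX12*, *ALOX12B*, *ALOX15*, *ALOX15B*, *NOX1* and *PTGS2* did not. *ALOXE3*, an epidermal lipoxygenase, rose with siATF4 by 1.76 and 1.19 in DMSO and Sorafenib and fell with siY/T in DMSO (-0.62), and *NOX4*, an oxidase that makes hydrogen peroxide, rose with siY/T in DMSO (0.93). These 2 genes were named after their values were seen, and each had a mean under 5 CPM. Over the 12 libraries *ALOXE3* ran from 0.273 to 5.29 CPM. *NOX4* ran from 0.0856 to 1.18 CPM with a median of 0.434. It thus passed the filter of 1 CPM only through its highest libraries, and its change is near the floor of the data. Of the 9 tested genes of the glutathione peroxidase family and of selenoprotein synthesis, none was called with siY/T under either treatment by limma, edgeR or DESeq2, and 3 passed an unadjusted P under 0.05 in limma under each. With siATF4 1 rose and 1 fell under each treatment. *GPX8*, a peroxidase of the endoplasmic reticulum, went from 59.4 CPM in siCtrl to 26.7 CPM in siATF4 cells in DMSO, a fall (-1.14), and by 0.90 on the log2 scale in Sorafenib. *SEPHS2*, which makes the selenium donor for selenoproteins such as GPX4, rose by 0.83 in DMSO, and *LRP8*, a receptor for the selenium carrier, rose by 0.63 in Sorafenib.

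Among 9 genes of cystine import and glutathione, which supply GPX4 with its reductant, 3 fell with siY/T in DMSO and 4 in Sorafenib. With siATF4 3 fell and 1 rose under each treatment. *SLC7A11*, the cystine carrier, fell with siY/T by 1.49 and 1.67 on the log2 scale in DMSO and Sorafenib, and with siATF4 by 0.97 and 2.23 on the same scale. *GCLM*, a subunit of the rate-limiting enzyme of glutathione synthesis, fell with siY/T (-0.69 and -0.61) and with siATF4 was higher by 0.57 in DMSO, short of the threshold, and rose by 0.68 in Sorafenib. Sorafenib raised *SLC7A11*, *CHAC1* and *CBS* in siCtrl cells (1.49, 2.28 and 1.01) and in siY/T cells (1.31, 1.42 and 0.97). Beside these calls, 17.5% and 9.97% of all genes were called. In siATF4 cells none of the 9 was called by limma, edgeR or DESeq2, with 2 at an unadjusted P under 0.05 in each tool. By limma only 8.63% of all genes were called there, so nothing is read from the absence of a call among 9 genes. *CHAC1* degrades glutathione, and *CBS* makes the cysteine precursor cystathionine.

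Among 14 genes of ubiquinone, the molecule that FSP1 and DHODH reduce, 2 rose with siY/T in DMSO and 1 in Sorafenib. *COQ8A*, a kinase-like protein of ubiquinone synthesis, rose from 14.2 to 28.1 CPM in DMSO (0.96) and by 1.11 in Sorafenib, and *COQ8B* rose by 0.68 in DMSO. With siATF4 1 rose and 1 fell in DMSO, and 3 rose and 1 fell in Sorafenib. *NQO1*, a quinone reductase, fell from 231 to 90.7 CPM (-1.34) in DMSO and by 1.27 on the log2 scale in Sorafenib, and *PDSS1*, which makes the ubiquinone side chain, rose by 0.80 in Sorafenib. The 5 other tested genes of tetrahydrobiopterin, the product of the GCH1 pathway, gave no call with either siRNA by limma, edgeR or DESeq2, and in limma 1 to 3 of them passed an unadjusted P under 0.05 in each of these 4 comparisons. *PTS*, the enzyme that follows GCH1, fell with Sorafenib in siCtrl cells (-0.74).

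Of 6 pyrimidine genes around DHODH, *CTPS1* fell with siY/T in DMSO (-0.82). In Sorafenib none was called by limma and 1 each by edgeR and DESeq2, with 4 at an unadjusted P under 0.05 in limma. With siATF4 none was called in DMSO by any of these tools, with 4 at an unadjusted P under 0.05 in limma, and *CTPS1* (0.82), *TYMS* (0.94) and *UCK2* (0.61) rose in Sorafenib. *CTPS1* makes CTP, *TYMS* makes thymidylate and *UCK2* salvages uridine. In siCtrl cells Sorafenib lowered *CTPS1* (-0.95), *TYMS* (-1.01) and *UMPS*, and raised *CTPS2* (0.59), the last in limma only. Of 11 polyamine genes, which act around SAT1, *PAOX* rose and *SMS*, spermine synthase, fell with siY/T in DMSO (*SMS* -0.71). In Sorafenib none was called by limma, edgeR or DESeq2, with 7 at an unadjusted P under 0.05 in each. With siATF4 in DMSO *ARG2* (1.21), *ODC1*, the first enzyme of polyamine synthesis (0.83), and *SMS* (0.72) rose, and in Sorafenib *ODC1* (0.71) and *SMS* (1.19) rose. *PAOX*, which oxidises the acetylated polyamines made by SAT1, fell with siATF4 under both treatments. *SAT2*, the other acetyltransferase of the family, had -0.011 and -0.32 with siATF4 and rose with Sorafenib in siCtrl (0.86) and siY/T (0.84) cells.

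**Figure D4:**
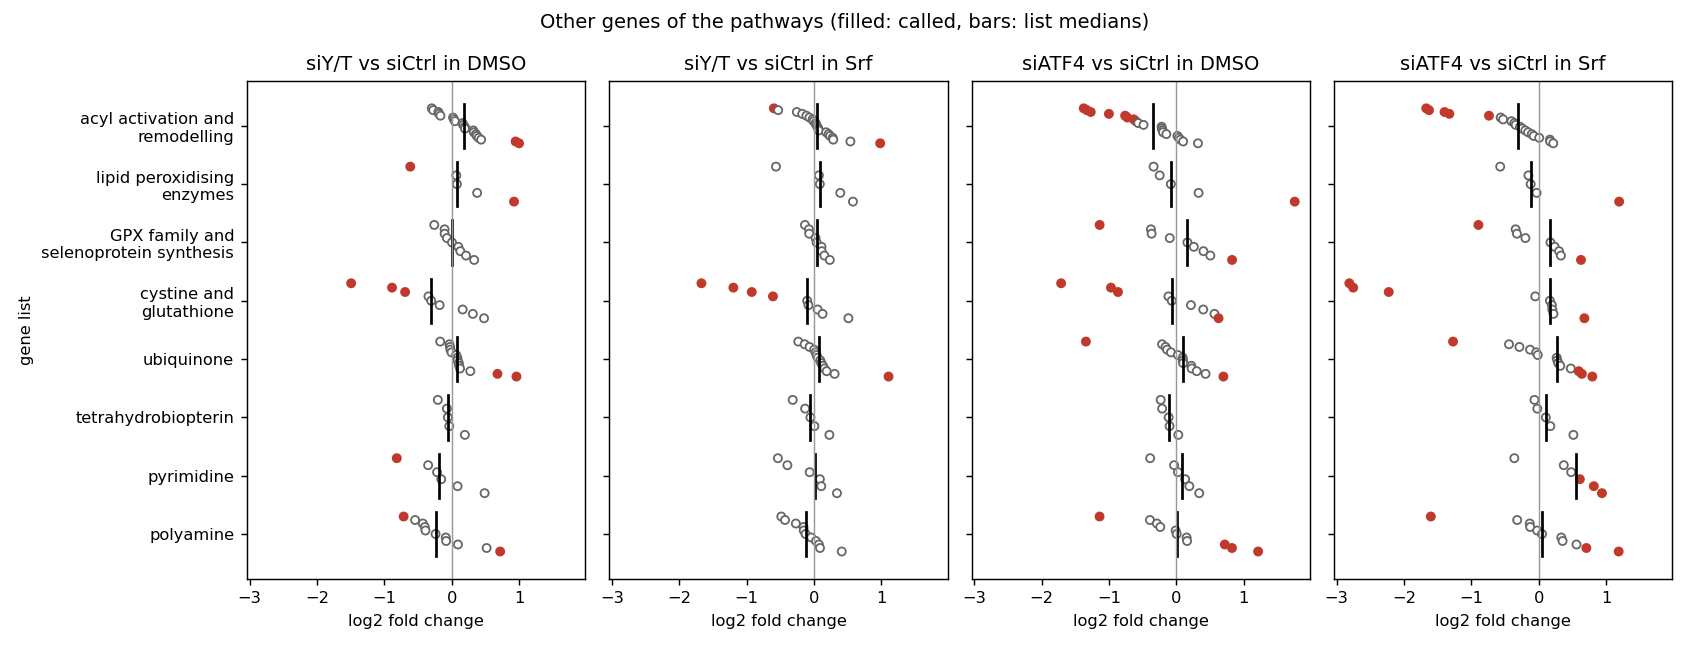
Log2 fold change (x axes) of each tested gene of 8 pathway lists (rows) with siY/T or siATF4 against siCtrl in DMSO and Sorafenib (panels); filled points are called genes and black bars list medians. The acyl activation and remodelling list lies to the left with siATF4 (medians -0.35 and -0.31), and the cystine and glutathione list holds the lowest points in the siATF4 Srf panel.

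Genes whose levels ran most like those of the called genes over the 12 libraries were looked up among 11152 genes, by Pearson's r of the log2 values. The libraries come from 6 groups and share them, so r is a description. For *SAT1* these were *CHURC1* (r = 0.953) and *ZNF585A* (r = 0.948). For *ACSL5* they were *TIMP1* (r = 0.973) and *RGL2* (r = 0.973), for *LPCAT3* *FKBP2* (r = 0.994) and *POLD4* (r = 0.993), and for *GCH1* *ZFAND2A* (r = 0.992) and *FAM131A* (r = 0.988). For *DHODH* they were *COA6* (r = 0.978) and *UQCRH* (r = 0.975), which both serve the respiratory chain. *TIMP1*, an inhibitor of metalloproteinases, was 115 and 117 CPM in siCtrl DMSO cells against 212 and 185 CPM after siY/T, and *ZFAND2A*, a stress-induced protein, was 6.94 and 7.94 CPM in siCtrl DMSO cells and 24.8 and 24.8 CPM in siATF4 DMSO cells. For *ACSL1*, called only in a difference between treatments, they were *PCOLCE2* (r = 0.966) and *CENPI* (r = 0.959).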

How the data were processed

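Per the labels and the paper's methods, RNA was sequenced as poly(A) libraries, mapped to hg19 with STAR keeping unique hits and counted over RefSeq mRNA exons with QuasR. The labels hold 2 libraries per group where the methods state biological triplicates, and the labels and the paper also differ in the kit and instrument. The paper's kit is a stranded one, and the strand setting of the counting is not given in the sources used here. The authors deposited CPM, reads per 1000000 reads on genes, and at least 99.695% of the values in each library were whole reads within 0.001 read. All 12 columns were mapped to samples. From these CPM, log2(CPM + 0.5) was fitted with limma 3.58.1 with 1 coefficient per group and a variance trend. The recovered counts were tested with edgeR 4.0.16 and DESeq2 1.42.0. In reads simulated for siATF4 in DMSO over 13515 genes, limma, edgeR and DESeq2 each recovered 200 of 200 changed genes, with 0, 17 and 1 wrong calls. Entrez identifiers were named from RefSeq, and positions came from GENCODE on GRCh37. Libraries held 41408348 to 53619732 reads, and the lowest value among the 10 genes, for *GCH1*, rested on 80 reads.

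The 10 genes and the pathway lists were chosen with earlier results of these data known. All 10 genes were named, with up to 4 genes of a list, those tested with a mean of at least 5 CPM, a call and the largest changes, and the 2 genes most alike for each called gene. *ALOXE3*, *NOX4*, *UMPS*, *PAOX* and genes that overlap *LPCAT3* and *ACSL5* were named in addition. One gene that the rule names is not reported here. Alternatives were other pseudocounts, filters, scalings, tools and thresholds, replicate blocks, fits restricted to the groups of each comparison, and leaving out each library.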

Additional observations from a re-analysis of the deposited data

Results flagged for a closer look

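Differences between the effects of an siRNA in Sorafenib and in DMSO passed an adjusted p of 0.05 by limma for 4 values. *SAT1* was affected more by siY/T in Sorafenib than in DMSO by 0.87 on the log2 scale, and its siATF4 effect was smaller in Sorafenib, at -1.80. For *LPCAT3* the siATF4 effect was more negative in Sorafenib by 0.26, at -0.26. For *ACSL1* the negative siATF4 effect of DMSO was reduced in Sorafenib, a difference of 0.24.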

How the results depend on the processing

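Of 2609 values of the 10 genes under the alternatives, 2533 kept their direction and side of the threshold, 15 lost a call, 17 gained one, 44 past no threshold changed sign and none past a threshold reversed. Quantile normalization left 1 gene called with siY/T in DMSO, and a pseudocount of 1 left 1 with siATF4 in Sorafenib. A filter at 5 CPM removed *GCH1* from the test and left 1 gene with siATF4 in DMSO and 1 in Sorafenib. With an adjusted p and an absolute change of at least 1, 1 gene was called with siY/T in DMSO, 0 with siATF4 in Sorafenib, and 2 and 1 between siY/T and siATF4 in DMSO and Sorafenib. As each library was left out, 1 to 2 genes were called with siATF4 in Sorafenib (1 without the second siATF4 Srf library), 2 to 5 between siY/T and siATF4 in DMSO (2 without the second siATF4 DMSO library), 2 to 3 with siATF4 in DMSO, 2 to 4 for the difference between siATF4 effects and 1 to 3 for the difference between siY/T effects, where *ACSL3* was added without the first siY/T DMSO library, and *ACSL4* and *GPX4* without the second. The largest shift of the median of all genes was 0.064 with TMM scaling and 0.125 with quantile normalization. Of 155 calls of list genes, TMM scaling lost 5 and gained 13, quantile normalization lost 19 and gained 19, and neither reversed any.

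Nothing in the labels pairs same-numbered libraries. Their deviations correlated at 0.036 to 0.19 over 3 pairs of groups within DMSO and at 0.10 to 0.16 over 3 pairs within Sorafenib. Across treatments they correlated at -0.28 to 0.0054 over 9 pairs. The correlations were thus weak and positive within each treatment, which may hint at pairing there. With the replicate block 23 of 110 values of the 10 genes were called, as without it, and no call changed. A replicate block within each treatment, chosen after seeing the data, called 24 and added the difference between siATF4 effects on *ACSL4* (0.33). Over all genes it called 3751 differences between siY/T effects against 2978 without it, and 6101 against 5553 for siATF4.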
